A study of Mus musculus with 36 samples.

Results

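The 7 genes described here, Bcl6, Ascl2, Pou2af1, Cxcr5, Icos, Sh2d1a and Il21, are hallmark genes of follicular helper T cells (Tfh). They were chosen by name, with earlier results of these data known, and all 7 were found among the 56748 genes of the count table. RNA-seq levels are given as CPM, the estimated counts of a gene relative to the scaled total of its library, expressed per 1000000 counts.

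Tfh are CD4+ T cells that help B cells in germinal centres. Their differentiation is driven by the transcriptional repressor Bcl6, and it is accompanied by the chemokine receptor Cxcr5, which brings the cells to B cell follicles, by the costimulatory receptor Icos, and by the adaptor SAP (encoded by Sh2d1a), which permits stable contacts with B cells. Interleukin 21 (Il21) is the cytokine by which Tfh act on germinal centre B cells. Ascl2 is a basic helix-loop-helix factor known to promote Cxcr5 expression, and Pou2af1 encodes the coactivator OCA-B (Bob1) of POU-domain factors. None of these genes marks Tfh alone, since Bcl6, Cxcr5 and Pou2af1 are also expressed by B cells and Icos by most activated CD4+ T cells.

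The study asked how the heterochromatin proteins HP1α and HP1γ affect the response of CD4+ T cells to suppression by regulatory T cells (Treg). In the HP1a line, a floxed Hp1a allele had been deleted by crossing with CMV-cre mice, so that the deletion was carried in the germ line, and knock-out (KO) mice were compared with wild-type (WT) littermates. In the HP1g line, the cells of KO mice carried floxed Hp1g alleles and a Cd4-cre transgene, which is active in T cells, and control littermates (labelled WT) carried the same floxed alleles without the transgene. The HP1 mutant mice and their controls, on a mixed 129/Sv and C57BL/6 background, were 6 to 12 weeks old and sex-matched, and males served for sequencing. Naive CD4+ T cells came from the spleen of these mice by negative selection with a kit and were not sorted, whereas transferred cells were, a difference that all comparisons with naive cells contain. The name Tconv stands for conventional CD4+ T cells taken back from the spleen 3 weeks after naive cells had been injected into lethally irradiated hosts, either CD45.1+ B6 or C57BL/6 J, together with bone marrow of C57BL/6 J and B6D2F1 mice. Tconv with Treg came from hosts that had also received WT Treg expanded ex vivo, and in both groups of hosts the recovered cells were sorted as CD4+ TCR Vβ6+ Thy1.1- cells of CD45.2+ CD45.1- and H-2Kb+ H-2Kd- type, a gate that removes the injected Thy1.1+ Treg. There were 3 libraries in each of the 12 groups, except for 2 in HP1g KO Tconv with Treg, where replicate 3 was left out as the study did for its read quality, which leaves 35 libraries. The labels do not say whether the replicates of a group came from separate animals, so the p-values measure the spread between these libraries. Each line had its own controls and hosts, so that line and experiment cannot be told apart.

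The libraries held 37029519 to 63042245 estimated counts (median 46844690), and 3 counts, the limit taken for a gene without counts, were worth 0.0476 to 0.0810 CPM. This limit covers counting error only. The targeted genes were lower in each KO group than in the matching WT group, without overlap. Cbx5, which encodes HP1α, was at 9.20 to 19.7 CPM in KO and 18.5 to 61.8 CPM in WT libraries of the HP1a line, and Cbx3, which encodes HP1γ, was at 60.5 to 80.8 CPM in KO and 79.05 to 199.5 CPM in WT libraries of the HP1g line. CD4+ T cell markers were high throughout (Cd4 at 630.1 to 1334 CPM), while Cd8a did not exceed 1.63 CPM and 4 CD8 T or NK cell genes summed to 7.08 to 30.2 CPM. Summed over 10 B lineage genes, the level was 3.53 to 64.2 CPM, with Cd22 reaching 60.04 CPM in 1 transferred library, while Ms4a1 and Pax5 did not exceed 1.60 and 1.34 CPM. Myeloid genes (10 genes) summed to 4.96 to 568.9 CPM and erythroid genes (6 genes) to 1.80 to 6145 CPM.

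On the GRCm39 assembly, Bcl6 (ENSMUSG00000022508) lies on chr16:23783802-23807602, minus strand, Ascl2 (ENSMUSG00000009248) on chr7:142520564-142523006, minus strand, and Pou2af1 (ENSMUSG00000032053) on chr9:51124984-51151380, plus strand. Cxcr5 (ENSMUSG00000047880) lies on chr9:44423083-44473174, minus strand, and Icos (ENSMUSG00000026009) on chr1:61017086-61039479, plus strand. Sh2d1a (ENSMUSG00000005696) lies on chrX:41591330-41618207, plus strand, and Il21 (ENSMUSG00000027718) on chr3:37276908-37286785, minus strand. The SMART-Seq kit does not mark the strand, so reads of overlapping opposite-strand exons cannot be told apart. Such exons cover 1465 bases of Sh2d1a (Tenm1), 118 of Cxcr5 (Bcl9l), 469 of Il21 (Gm12534), and 232 and 472 of Bcl6 (Gm60914 and Gm60916). Ascl2, Pou2af1 and Icos shared no exon bases with another gene.

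Of the 7 genes, 4 matched an entry in the RefSeq promoter set of the assembly GRCm38.p6 (Il21, Ascl2, Pou2af1, and Bcl6 with 2 starts), which gives the 250 bases before and 50 bases after a gene start. Shown are the promoters of Il21 and Ascl2, the members with the largest differences between HP1a WT cells from hosts with and without Treg. The Il21 sequence is chr3:37232587-37232886 and the Ascl2 sequence chr7:142969215-142969514, both from the minus strand, and the capitals mark matches to TGGAAA, the core bound by NFAT factors downstream of the T cell receptor, on either strand.
Il21: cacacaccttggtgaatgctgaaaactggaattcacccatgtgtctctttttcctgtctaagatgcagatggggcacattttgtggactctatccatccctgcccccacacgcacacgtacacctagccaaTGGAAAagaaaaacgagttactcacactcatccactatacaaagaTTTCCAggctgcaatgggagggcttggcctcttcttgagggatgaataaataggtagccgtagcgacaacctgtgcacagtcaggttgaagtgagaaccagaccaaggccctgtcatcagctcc
Ascl2: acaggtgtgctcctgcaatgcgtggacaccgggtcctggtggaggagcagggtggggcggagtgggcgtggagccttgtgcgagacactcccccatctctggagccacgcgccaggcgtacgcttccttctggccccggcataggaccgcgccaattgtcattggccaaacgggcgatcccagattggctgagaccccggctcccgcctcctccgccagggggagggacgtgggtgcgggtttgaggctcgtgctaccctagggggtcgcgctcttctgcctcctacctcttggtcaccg
The Il21 promoter held 2 matches, with first bases at -119 from the gene start on its own strand and at -74 on the opposite strand, and 1 of the 2 Bcl6 promoters held 1 match. Of all 32851 promoters, 21.4% held TGGAAA. The octamer ATGCAAAT, which POU-domain factors bind with OCA-B (1.74% of all promoters), was searched on both strands in the same way and not found in those of the 4 genes. The TATA box TATAAA (13.6% of all promoters) was not found either. Nor was the E-box CAGCTG, a sequence that basic helix-loop-helix factors can bind (16.3% of all promoters), in any of them. The last sequence searched, TGANTCA of AP-1 factors, with N for any base, was likewise absent and was held by 7.81% of all promoters. A match is a description of the letters only.

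**Figure D1:**
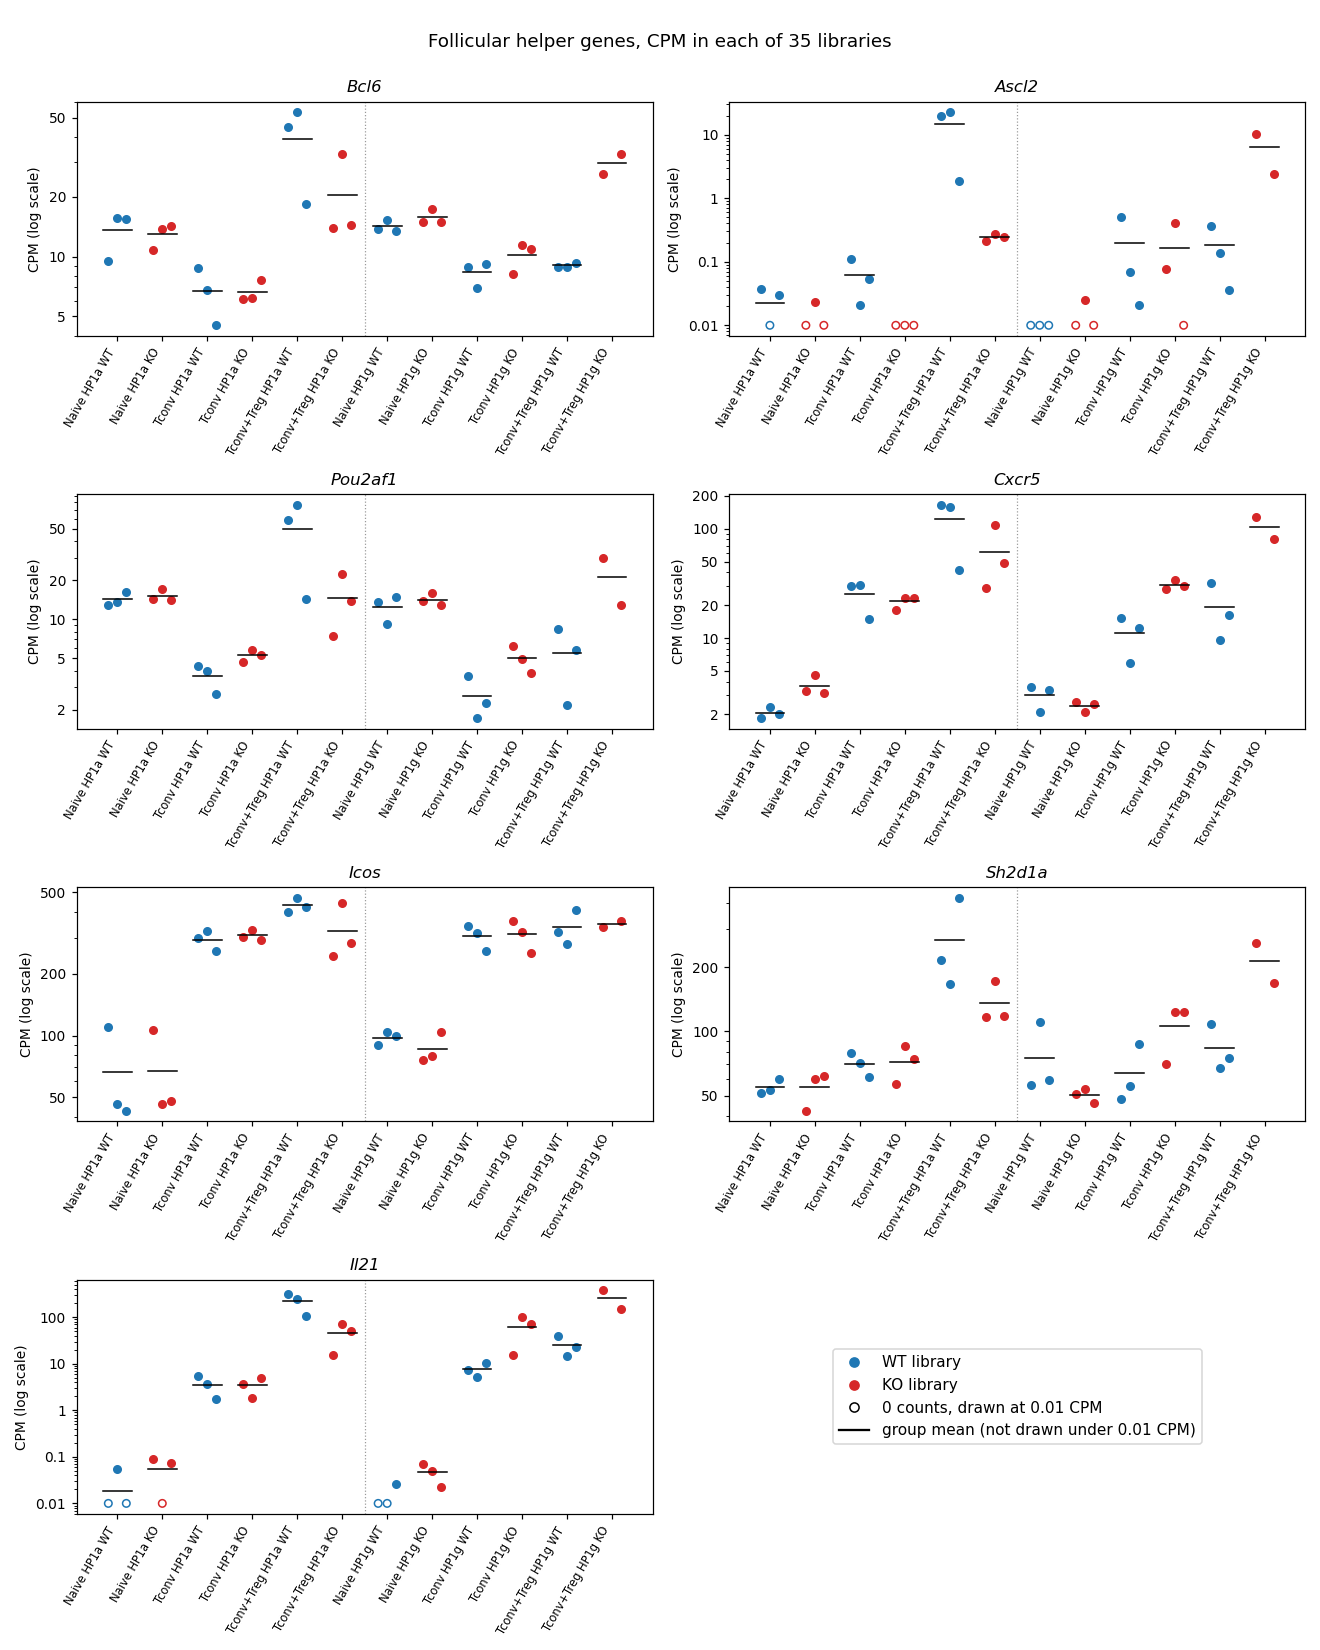
Level of each of the 7 genes in 35 libraries (CPM, log scale), by group, with WT libraries in blue, KO libraries in red, group means as bars and libraries with 0 counts as open circles at 0.01 CPM. The HP1a WT Tconv with Treg group has the highest mean of the 12 groups for 6 of the genes, and HP1g KO Tconv with Treg has it for Il21.

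Naive cells expressed Sh2d1a, Icos, Bcl6 and Pou2af1, little Cxcr5, and almost no Il21 or Ascl2. In the 12 naive libraries Sh2d1a ranged from 42.5 to 110.7 CPM, Icos from 43.0 to 109.9 CPM, Bcl6 from 9.50 to 17.4 CPM and Pou2af1 from 9.17 to 17.3 CPM. Cxcr5 stayed between 1.86 and 4.60 CPM. Il21 did not exceed 0.0910 CPM and Ascl2 did not exceed 0.0367 CPM, levels at or near the limit of 3 counts. KO and WT naive cells of either line did not differ by the test in any member. edgeR's quasi-likelihood test called 0 of the 5 members that passed the filter on low counts in each line, where a call needs an adjusted p under 0.05 and a fold change above 2 (0% of all genes called in the HP1a line and 0.00669% in the HP1g line). By DESeq2 0 members were called as well, and at an unadjusted p under 0.05 there was 1, Cxcr5 in the HP1a line, at 3.25, 4.60 and 3.12 CPM in KO against 1.86, 2.36 and 2.03 CPM in WT naive cells (adjusted p = 0.9999). Icos was uneven among naive cells of the HP1a line. Replicate 1 stood at 109.9 CPM in WT and 106.3 CPM in KO, while the other 4 libraries lay between 43.0 and 47.7 CPM.

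After transfer into the hosts, Tconv differed from naive cells in most of the 7 genes, in both directions. Cxcr5, Il21 and Icos rose and Pou2af1 fell in each of the 4 comparisons of Tconv with naive cells (WT and KO of both lines). The members called were 5 of the 6 tested in HP1a WT, 4 in HP1a KO, 4 in HP1g WT and 5 in HP1g KO, where 23.1%, 19.7%, 23.5% and 23.1% of all genes were called. Ascl2 did not pass the filter on low counts in any of them. Without overlap, 29.7%, 29%, 27.3% and 27.8% of all genes were higher and 28%, 25.9%, 24.6% and 25.5% lower in Tconv than in naive cells. Il21 passed the filter through Tconv alone, so that a difference was bound to be seen. Marker genes of other cell types differed too, here counted in the same order of comparisons. Of 10 Treg genes, 6, 6, 7 and 7 were called higher and 0, 1, 0 and 3 lower. Of 10 myeloid genes, 0, 5, 6 and 7 were called higher and 1, 0, 0 and 0 lower. Of 6 erythroid genes, 0, 0, 6 and 5 were called higher and 5, 0, 0 and 0 lower. Of 10 B lineage genes, 1, 1, 1 and 1 were called higher and 3, 2, 2 and 4 lower. Their part was not tested.

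Cxcr5 was at 30.2, 30.4 and 14.8 CPM in HP1a WT Tconv and 15.4, 5.90 and 12.3 CPM in HP1g WT Tconv. Every Tconv library was above every naive library, with log2 fold changes of 3.60 (SE 0.31) in HP1a WT, 2.58 (SE 0.21) in HP1a KO, 1.91 (SE 0.39) in HP1g WT and 3.69 (SE 0.18) in HP1g KO, and the adjusted p was at most 0.00771 (edgeR). Icos rose to between 253.5 and 361.7 CPM in the 12 Tconv libraries, with log2 fold changes of 1.64 to 2.22 (adjusted p at most 0.00601), as this receptor is known to do on activated CD4+ T cells of all kinds. Il21 was at 5.38, 3.64 and 1.71 CPM in HP1a WT Tconv against 3 counts in all 3 naive libraries together, a ratio of 210 (95% counting interval 71.3 to 1020). The corresponding ratio was 64.1 (32.3 to 149) in HP1a KO, 994 (178 to 39300) in HP1g WT and 1220 (594 to 3040) in HP1g KO. These intervals, like all those on summed counts, cover counting error only. Pou2af1, the coactivator gene, moved the other way, from 9.17 to 17.3 CPM in naive cells to 1.73 to 6.27 CPM in Tconv, without overlap. Its log2 fold changes were -1.96 (SE 0.23), -1.52 (SE 0.17), -2.29 (SE 0.34) and -1.48 (SE 0.21) in HP1a WT, HP1a KO, HP1g WT and HP1g KO, with adjusted p at most 0.00163. Bcl6, the lineage-defining repressor, fell in HP1a WT Tconv to 8.79, 6.80 and 4.51 CPM (log2 fold change -1.01, SE 0.29, adjusted p = 0.0210), and its log2 fold change was between -0.95 and -0.61 in the other three comparisons, under the fold required. The call of Bcl6 was lost without Tconv replicate 2 or 3 or naive replicate 2 or 3 (log2 fold changes -1.02, -0.79, -0.89 and -0.92), and it was gained in HP1a KO without Tconv replicate 3 or naive replicate 1 (-1.06 and -1.08). Sh2d1a rose in HP1g KO Tconv to 70.6, 122.8 and 123.3 CPM (log2 fold change 1.10, SE 0.21, adjusted p = 0.00476) and was not called in the other three, and without Tconv replicate 2 or 3 it fell under the fold required (0.97 in each). In bulk RNA of sorted cells, fewer cells of a type and less RNA per cell cannot be told apart, here and in all comparisons that follow.

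Tconv from hosts given Treg carried more RNA of the Tfh genes than Tconv from hosts without Treg in HP1a WT cells. There, 6 of the 7 genes rose (Bcl6, Cxcr5, Il21, Sh2d1a, Ascl2 and Pou2af1), against 5.96% of all 15627 genes tested that were called in either direction. Ascl2 passed the filter only through the libraries with Treg, which leaves 5 besides it. All 7 genes were higher in each library with Treg than in each library without, as were 14.7% of all genes. The median log2 fold change of the 7 genes was 2.57, against 0.035 over all genes.

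The cytokine gene Il21 showed a large difference, from 5.38, 3.64 and 1.71 CPM without Treg to 309.7, 248.7 and 104.1 CPM with Treg. The log2 fold change was 5.98 (SE 0.59, adjusted p = 0.00212, edgeR). Among the transcription factors, Bcl6 was at 8.79, 6.80 and 4.51 CPM without and 44.9, 53.4 and 18.4 CPM with Treg (log2 fold change 2.57, SE 0.43, adjusted p = 0.0143). For neither gene did the libraries with and without Treg overlap. Pou2af1 went from 4.34, 4.002 and 2.66 CPM to 59.0, 76.6 and 14.4 CPM (log2 fold change 3.80, SE 0.60, adjusted p = 0.0115), in 2 of the 3 libraries well above the naive level of 12.99 to 16.4 CPM. Ascl2 went from 0.109, 0.0212 and 0.0544 CPM, which were 7 counts in all, to 19.4, 22.6 and 1.89 CPM, or 2122 counts. The ratio of its summed levels was 267 (counting interval 130 to 666, adjusted p = 0.00868), and the gene passed the filter on low counts only through the libraries with Treg, so that a difference was bound to be seen. Replicate 3 with Treg was the lowest of its group for all of these genes, yet above all libraries without Treg. It had the highest myeloid sum of the group (39.8 CPM, against 16.3 and 16.8 CPM) and the highest erythroid sum (49.9 CPM, against 2.62 and 4.13 CPM). The part of these sums was not tested.

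The follicle-homing receptor gene Cxcr5 was at 30.2, 30.4 and 14.8 CPM without and 165.5, 159.4 and 41.8 CPM with Treg (log2 fold change 2.32, SE 0.53, adjusted p = 0.0415). Sh2d1a, the SAP gene, went from 79.5, 70.8 and 61.2 CPM to 215.1, 167.0 and 422.4 CPM (log2 fold change 1.97, SE 0.35, adjusted p = 0.0173), and here replicate 3 was the highest of the group. Icos, already high in Tconv, was at 299.3, 323.5 and 259.7 CPM without and 400.1, 471.8 and 425.9 CPM with Treg, a log2 fold change of 0.60 (SE 0.15, adjusted p = 0.0560) that was not called. Leaving out any single Tconv library without Treg left Il21 alone as a call, with log2 fold changes of 6.38, 5.99 and 5.64 without replicates 1, 2 and 3 (adjusted p = 0.0149, 0.0225 and 0.0142). Leaving out Tconv with Treg replicate 1 left 4 genes called, replicate 2 left 5 and replicate 3 left 6. Over these fits the log2 fold change stayed between 2.27 and 2.90 for Bcl6, 2.02 and 2.72 for Cxcr5, 1.47 and 2.21 for Sh2d1a, and 3.36 and 4.23 for Pou2af1.

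Marker genes of other cell types were also higher in part. Foxp3, the Treg lineage factor gene, was at 12.1, 9.04 and 4.46 CPM without and 13.3, 68.7 and 18.1 CPM with Treg (adjusted p = 0.129), and the summed level of 10 Treg genes was 808.3 to 1102 CPM without and 1047 to 1330 CPM with Treg. Of these 10 genes, 2 rose, Ikzf2 (log2 fold change 3.82) and Ctla4 (2.42). The 10 B lineage genes summed to 5.33 to 19.98 CPM without and 9.23 to 38.9 CPM with Treg. Only 3 of the 10 passed the filter on low counts, and 0 were called. Without overlap, 3 of the 10 were higher with Treg (14.7% of all genes tested were) and 0 were lower. The 10 myeloid genes summed to 5.80 to 6.01 CPM without and 16.3 to 39.8 CPM with Treg, and 3 of them rose (Adgre1, Ltf and Cd14, each at less than 2 CPM). Their part in the result was not tested.

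In HP1a KO cells the means were also higher with Treg, and no member was called. All libraries with Treg were above all those without for 6 genes, against 9.72% of all genes tested. These 6 were all members but Icos, and they hold Ascl2, which did not pass the filter on low counts. The 6 genes tested were all members but Ascl2, and edgeR called 0 of them (0.44% of all genes called). At an unadjusted p under 0.05 there were 5, and DESeq2 called 4 (Bcl6, Il21, Ascl2 and Pou2af1). Il21 was at 3.62, 1.88 and 4.84 CPM without and 15.7, 71.8 and 49.4 CPM with Treg (log2 fold change 3.73, SE 0.65, adjusted p = 0.0778). Bcl6 was at 6.12, 6.19 and 7.61 CPM against 13.9, 32.9 and 14.4 CPM (1.63, SE 0.35, adjusted p = 0.0989). Replicate 2 with Treg was the highest library of its group for every member. It also had the highest B lineage sum (64.2 CPM, against 18.1 and 20.7 CPM) and the highest Foxp3 (35.02 CPM). Its myeloid sum (205.7 CPM, against 433.7 and 568.9 CPM) and erythroid sum (112.9 CPM, against 572.6 and 703.0 CPM) were the lowest of the group. The part of these markers was not tested. Cxcr5 was at 17.9, 23.5 and 23.5 CPM without and 28.8, 108.5 and 48.2 CPM with Treg (1.53, SE 0.47, adjusted p = 0.207), and Pou2af1 at 4.67, 5.80 and 5.33 CPM against 7.46, 22.5 and 13.8 CPM (1.48, SE 0.37, adjusted p = 0.127). For Sh2d1a, 56.4, 85.2 and 74.6 CPM stood against 116.6, 172.2 and 118.2 CPM (0.93, SE 0.20, adjusted p = 0.0980). Ascl2 had 0 counts in the 3 libraries without Treg and 35 counts with Treg (0.211, 0.275 and 0.249 CPM), a ratio of at least 12-fold when the group without Treg is set to 3 counts in all. Icos did not separate, at 294.3 to 326.7 CPM without and 243.8 to 444.6 CPM with Treg. The 10 myeloid genes summed to 205.7 to 568.9 CPM with and 11.3 to 158.3 CPM without Treg, without overlap, and their part was not tested.

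In WT cells of the HP1g line no member was called with Treg. edgeR called 0 of 6 tested members (0.0126% of all genes), 1 had an unadjusted p under 0.05, and DESeq2 called that gene, Il21. Il21 was at 7.43, 5.31 and 10.6 CPM without and 38.7, 14.5 and 22.8 CPM with Treg (log2 fold change 1.70, SE 0.42, adjusted p = 0.694), the single member without overlap, against 6.6% of all genes. Bcl6 was nearly level, at 8.86, 6.97 and 9.15 CPM without and 8.89, 8.88 and 9.33 CPM with Treg. Ascl2 was low in both (29 counts without and 26 with Treg, ratio 0.860, counting interval 0.486 to 1.51). The log2 fold changes of Cxcr5 (0.78, SE 0.54), Pou2af1 (1.10, SE 0.52), Sh2d1a (0.39, SE 0.28) and Icos (0.14, SE 0.16) were not called either.

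HP1g KO cells, with 2 libraries with Treg, lay higher with Treg in 6 of the 7 genes without overlap (13.7% of all genes did), and edgeR called none of the 7 (0% of all genes). At an unadjusted p under 0.05 there were 6, and DESeq2 called 3 (Bcl6, Cxcr5 and Pou2af1). Cxcr5 was at 27.9, 33.9 and 29.8 CPM without and 129.0 and 80.0 CPM with Treg (log2 fold change 1.77, SE 0.23, adjusted p = 0.314), and it was called without KO Tconv with Treg replicate 2 (2.06), which leaves 1 library in that group. Bcl6 was at 8.18, 11.4 and 10.9 CPM against 26.2 and 32.7 CPM (1.53, SE 0.23, adjusted p = 0.413), and Pou2af1 at 6.27, 4.94 and 3.83 CPM against 29.5 and 12.95 CPM (2.08, SE 0.40, adjusted p = 0.503). The KO libraries with Treg were unequal, replicate 1 being the higher for every member but Bcl6 and Icos. Its erythroid sum was also higher, at 6145 against 113.6 CPM in replicate 2, and the part of this was not tested. Il21, already high without Treg in 2 libraries, was at 15.4, 99.5 and 72.6 CPM against 377.8 and 148.9 CPM (2.07, SE 0.78, adjusted p = 0.640). Ascl2 had 23 counts without and 739 with Treg, a ratio of 38.3 (counting interval 25.3 to 60.8). It is among the 6 genes without overlap, but it passed the filter on low counts only through the libraries with Treg. A difference in Ascl2 was thus bound to be seen. Sh2d1a was at 70.6, 122.8 and 123.3 CPM against 259.2 and 168.0 CPM (1.01, SE 0.31, adjusted p = 0.548). Icos overlapped, at 253.5 to 361.7 CPM without and 338.5 and 363.9 CPM with Treg. The B lineage sum was 24.5 and 26.9 CPM with against 7.23 to 14.4 CPM without Treg, and that of Treg genes 911.3 and 1521 against 592 to 865.9 CPM, both without overlap. Their part was not tested.

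**Figure D2:**
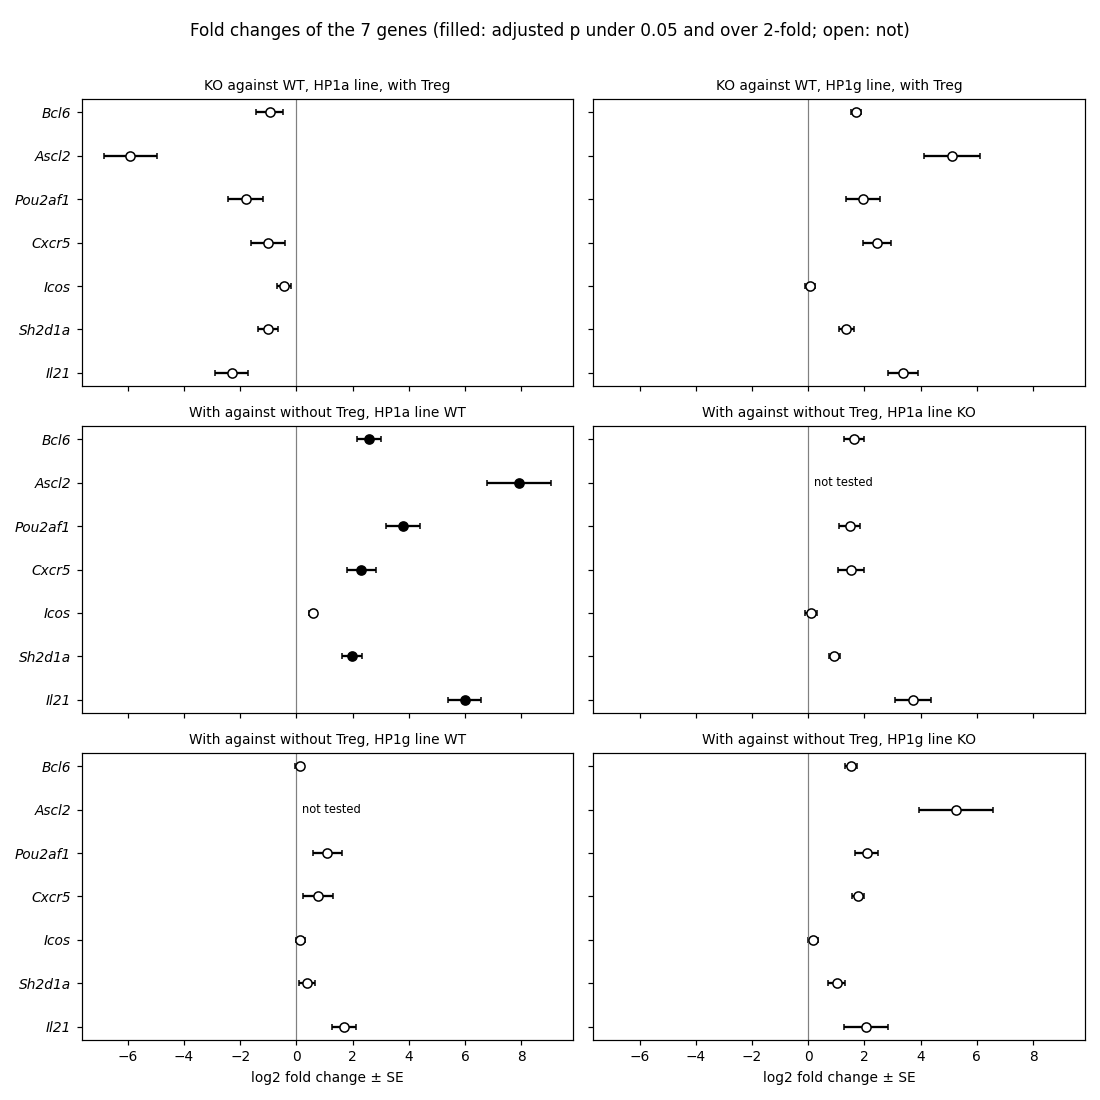
log2 fold change of each gene with its SE in the 4 comparisons of Tconv with and without Treg and the 2 comparisons of KO with WT Tconv with Treg, where filled points passed the test. In HP1a WT 6 of 7 genes are filled for the difference with Treg, and the KO against WT values are all below 0 in the HP1a line and all above 0 in the HP1g line, none of them filled.

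The comparison of KO with WT cells among Tconv with Treg asked whether either HP1 protein altered this programme under suppression, and it shares its libraries with the comparisons of Tconv with and without Treg. In the HP1a line all 7 genes had lower means in KO than in WT (median log2 fold change -1.01, against -0.01 over all genes), and edgeR called none of the 7 (0.123% of all genes called). At an unadjusted p under 0.05 there were 4 and DESeq2 called 3 (Il21, Ascl2 and Pou2af1). Il21 was at 15.7, 71.8 and 49.4 CPM in KO, while the WT libraries stood at 309.7, 248.7 and 104.1 CPM (log2 fold change -2.30, SE 0.59, adjusted p = 0.187). Ascl2 was at 0.211, 0.275 and 0.249 CPM in KO and 19.4, 22.6 and 1.89 CPM in WT, a ratio of 0.0157 (counting interval 0.0109 to 0.0219) with an adjusted p of 0.0752. Without WT replicate 3 it was called (adjusted p = 0.00298), but Ascl2 passed the filter only through WT and that library is the WT one nearest to KO, so nothing is read from this call. Il21 and Ascl2 were the members whose KO libraries all lay below the WT libraries (9.71% of all genes did). The other 5 genes overlapped, with WT replicate 3 low or KO replicate 2 high. Pou2af1 was at 7.46, 22.5 and 13.8 CPM against 59.0, 76.6 and 14.4 CPM (-1.80, SE 0.62, adjusted p = 0.311) and Cxcr5 at 28.8, 108.5 and 48.2 CPM against 165.5, 159.4 and 41.8 CPM (-1.01, SE 0.61, adjusted p = 0.561). Bcl6 (-0.95, SE 0.47), Sh2d1a (-1.01, SE 0.36) and Icos (-0.44, SE 0.23) had adjusted p between 0.325 and 0.505. The KO libraries of this comparison also held more myeloid RNA (205.7 to 568.9 CPM over 10 genes, against 16.3 to 39.8 CPM in WT), with Ltf called higher (log2 fold change 5.73), and more erythroid RNA (112.9 to 703.0 against 2.62 to 49.9 CPM). Treg genes summed to 699.4 to 946.3 CPM in KO and 1047 to 1330 CPM in WT. Their part was not tested.

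In the HP1g line the values pointed the other way, with all 7 genes higher on average in KO than in WT Tconv with Treg (median log2 fold change 1.96, against 0.011 over all genes). edgeR called none of the 7 (0% of all genes), 6 had an unadjusted p under 0.05, and DESeq2 called those 6, all but Icos. For the same 6 both KO libraries were above the 3 WT libraries, as for 16% of all genes. Ascl2, among these 6, passed the filter on low counts only through KO, so that its difference was bound to be seen. Il21 was at 377.8 and 148.9 CPM in KO against 38.7, 14.5 and 22.8 CPM for WT (log2 fold change 3.38, SE 0.53, adjusted p = 0.182), and with the replicate number as a block it was called (3.32, adjusted p = 0.0274). Bcl6 had the tightest groups, 26.2 and 32.7 CPM in KO against 8.89, 8.88 and 9.33 CPM in WT (1.70, SE 0.17, adjusted p = 0.146), and was called without KO replicate 2, which leaves 1 KO library (1.51, adjusted p = 0.0377). Ascl2 was at 10.2 and 2.40 CPM against 0.366, 0.140 and 0.0357 CPM, a ratio of 35.1 (counting interval 23.8 to 54.1). Both Ascl2 and Cxcr5 were above WT in each KO library, and a link between them was not tested. Cxcr5 was at 129.0 and 80.0 CPM against 31.8, 9.54 and 16.3 CPM (2.44, SE 0.50, adjusted p = 0.202), Sh2d1a at 259.2 and 168.0 CPM against 108.3, 67.6 and 75.4 CPM (1.35, SE 0.27, adjusted p = 0.194), and Pou2af1 at 29.5 and 12.95 CPM against 8.39, 2.16 and 5.84 CPM (1.96, SE 0.61, adjusted p = 0.298). Icos in KO (338.5 and 363.9 CPM) lay within the range of WT (280.5 to 411.7 CPM). KO replicate 1 was the highest of the 5 libraries in 5 of these genes. For the same genes WT replicate 1 was the highest WT library. Erythroid genes summed to 3372 to 6145 CPM in replicate 1 of each group of transferred HP1g cells, with and without Treg. The remaining libraries of these groups held 76.35 to 308.1 CPM. The part of this shared difference was not tested. The B lineage sum was 24.5 and 26.9 CPM in KO against 16.3, 4.93 and 6.21 CPM in WT, of which Cd22 held 22.8 or less per library, and Treg genes summed to 911.3 to 1521 CPM in KO against 678.2 to 856.4 CPM in WT; their part was not tested. Cxcr5 and Pou2af1 are in the gene list that the study drew up for HP1γ from these same samples, and Cxcr5 also in its Th1 list, so their values are not independent of that choice.

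Without Treg, no member was called between KO and WT Tconv of either line. In the HP1a line edgeR called 0 of the 6 tested members (0.103% of all genes), 0 had an unadjusted p under 0.05 and DESeq2 called 0, and the log2 fold changes lay between -0.21 (Cxcr5, SE 0.28) and 0.53 (Pou2af1, SE 0.23). Pou2af1 was nonetheless higher in each KO library, at 4.67, 5.80 and 5.33 CPM, than in each WT library, at 4.34, 4.002 and 2.66 CPM (6.74% of all genes were). The 10 myeloid genes summed to 11.3 to 158.3 CPM in KO against 5.80 to 6.01 CPM in WT Tconv of this line. The 6 erythroid genes summed to 26.6 to 768.9 CPM in KO against 1.80 to 3.48 CPM in WT. Of the 4 CD8 T or NK cell genes, 3 were tested and 1 was called, higher in KO. The part of these genes was not tested. In the HP1g line, 3 members were higher in each KO library (6.97% of all genes), namely Cxcr5, Il21 and Pou2af1. edgeR called 0 of 6 tested (0.0437% of all genes), 4 had an unadjusted p under 0.05, and DESeq2 called 2 (Cxcr5 and Il21). Cxcr5 was at 27.9, 33.9 and 29.8 CPM in KO against 15.4, 5.90 and 12.3 CPM in WT (1.47, SE 0.33, adjusted p = 0.260), and Il21 at 15.4, 99.5 and 72.6 CPM against 7.43, 5.31 and 10.6 CPM (3.03, SE 0.71, adjusted p = 0.301). Pou2af1 followed at 6.27, 4.94 and 3.83 CPM against 3.67, 1.73 and 2.27 CPM (0.99, SE 0.34, adjusted p = 0.468). Ascl2, below the filter, had 23 counts in KO and 29 in WT. The B lineage sum was 7.23 to 14.4 CPM in KO against 3.53 to 6.73 CPM in WT of the HP1g line, without overlap, and its part was not tested.

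Whether the difference with Treg depended on the genotype was tested as an interaction within each line. In the HP1a line all 7 estimates were below 0 and edgeR called none of the 7 (0.139% of all genes; 3 at an unadjusted p under 0.05, 1 by DESeq2, Pou2af1). Pou2af1 had an estimate of -2.32 (SE 0.73, adjusted p = 0.273), called without WT Tconv with Treg replicate 3 (-2.75, adjusted p = 0.0408), and Il21 one of -2.26 (SE 0.83, adjusted p = 0.373). The estimate of Ascl2 rests on a group with 0 counts. In the HP1g line 0 of 7 were called by edgeR (0% of all genes; 2 at an unadjusted p under 0.05, 1 by DESeq2, Bcl6). Bcl6 had an estimate of 1.39 (SE 0.27) with an adjusted p of 1. No member was thus shown to respond to Treg differently in KO and WT cells.

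The KO effects of the 2 lines in Tconv with Treg, which lay on opposite sides of 0, were also compared directly. This comparison uses the same libraries as those of KO with WT Tconv with Treg, so its calls are not independent of them. The difference (KO against WT in the HP1a line minus the same in the HP1g line) passed the test for 4 of the 7 genes, all lower, where 2.72% of all genes were called in either direction. It was -5.66 (SE 0.90, adjusted p = 0.0149) for Il21, -2.64 (SE 0.58, adjusted p = 0.0396) for Bcl6, -2.36 (SE 0.52, adjusted p = 0.0391) for Sh2d1a and -10.99 (SE 1.49, adjusted p = 0.01002) for Ascl2, a fitted value that depends on low counts in 2 groups. Ascl2 had 2122 counts in HP1a WT and 739 in HP1g KO, against 35 in HP1a KO and 26 in HP1g WT. A difference was thus bound to be seen, and nothing is read from its calls here, alone or with other genes. Pou2af1 (-3.74, SE 0.96, adjusted p = 0.0664) and Cxcr5 (-3.43, SE 0.90, adjusted p = 0.0712) missed the threshold, as did Icos (-0.49, SE 0.32, adjusted p = 0.477). The comparison sets the level of 1 line against that of the other, and the WT groups of the lines themselves differed. Between WT Tconv with Treg, Il21 was at 104.1 to 309.7 CPM in the HP1a line and 14.5 to 38.7 CPM in the HP1g line, and Bcl6 at 18.4 to 53.4 and 8.88 to 9.33 CPM. Leaving out 1 library at a time left between 1 and 6 of the genes called. Ascl2 alone was called without HP1a KO replicate 3, HP1g KO replicate 1 or HP1g WT replicate 2, Ascl2 and Il21 without HP1a KO replicate 1, HP1a WT replicate 1 or HP1g WT replicate 3, and 6 genes without HP1a WT replicate 3. With the left-out HP1g KO library included, Ascl2 alone was called (-10.65).

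The difference with Treg in WT cells was likewise set against that of the other line, a comparison added after the data were seen and sharing its HP1a WT and HP1g WT libraries with those above. It passed the test for 3 genes, all higher in the HP1a line, where 1.56% of all genes were called: Il21 (4.27, SE 0.70, adjusted p = 0.0129), Bcl6 (2.44, SE 0.48, adjusted p = 0.0272) and Ascl2 (8.05, SE 1.72, adjusted p = 0.0398). Ascl2 had 7, 29 and 26 counts in the other 3 groups, so that it passed the filter through HP1a WT with Treg alone. Pou2af1 (2.69, SE 0.82), Sh2d1a (1.57, SE 0.48), Cxcr5 (1.52, SE 0.78) and Icos (0.44, SE 0.22) did not pass, with adjusted p from 0.128 to 0.377. Il21 was called whichever library was left out, and the number of genes called ranged from 1 to 4, with 4 when HP1a WT Tconv with Treg replicate 3 was left out. Il21 was the single call without any HP1g WT Tconv library, without HP1a WT Tconv replicate 2 or 3, or without HP1a WT replicate 1 or HP1g WT replicate 2 or 3 with Treg. Leaving out HP1a WT Tconv replicate 1 or Tconv with Treg replicate 2 left Bcl6 and Il21, and leaving out HP1g WT Tconv with Treg replicate 1 left Il21 and Ascl2. The WT cells of the lines differ in their floxed alleles and were transferred into separate hosts, so that line and experiment cannot be told apart.

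Across the 12 groups, HP1a WT Tconv with Treg had the highest mean for Bcl6 (38.9 ± 18.2 CPM, SD, n = 3), Cxcr5 (122.2 ± 69.7), Sh2d1a (268.1 ± 135.7), Ascl2 (14.6 ± 11.1), Pou2af1 (50.01 ± 32.1) and Icos (432.6 ± 36.3). HP1g KO Tconv with Treg came next for each of them and first for Il21 (263.4 ± 161.8 CPM, n = 2, against 220.9 ± 105.6, n = 3). Most neighbours in these orders overlapped. For Bcl6 and Sh2d1a no group was clear of the next in order. For Ascl2 the leading 2 groups were clear of the other 10, and for Il21 the leading 2 groups were clear of HP1g KO Tconv, the next in order. Icos in HP1a WT Tconv with Treg (400.1 to 471.8 CPM) was clear of the next group, HP1g KO Tconv with Treg. It overlapped the following groups, HP1g WT (up to 411.7 CPM) and HP1a KO Tconv with Treg (up to 444.6 CPM). The 4 naive groups formed the bottom of the order for Cxcr5, Il21 and Icos, clear of the Tconv group above them. The 4 naive groups sat in the middle for Bcl6 and Pou2af1, above all Tconv groups without Treg. Per kilobase of exon sequence, the level in HP1a WT Tconv with Treg was 126.0 CPM for Icos, 45.7 for Sh2d1a, 42.0 for Il21, 36.7 for Cxcr5, 19.4 for Pou2af1, 8.96 for Ascl2 and 5.80 for Bcl6, so that Bcl6 had the lowest level per length of the 7 in that group.

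The 49 other genes of the Tfh programme were taken in 7 lists by role. In HP1a WT cells 10 of them rose with Treg and 4 fell, where 5.96% of all genes were called. Among these, 5 of 10 factors that promote Tfh were higher with Treg, namely Tox (28.2 to 464 CPM on average, log2 fold change 4.08, SE 0.37, adjusted p = 0.00170), Tox2 (3.40, SE 0.44), Egr2 (1.95, SE 0.45), Maf (1.83, SE 0.37) and Batf (1.20, SE 0.14). Tox and Tox2 are HMG-box factors, and Maf promotes Il21 expression. Of the 8 factors that restrain Tfh, 1 was called, Tbx21, the T-bet gene of Th1 cells, which fell by 1.71 on the log2 scale (SE 0.24, adjusted p = 0.00760), from 231 to 68.8 CPM on average. Among 9 surface receptors and ligands 3 rose, Pdcd1 (PD-1), Cd200 and Btla, inhibitory receptors or ligands that Tfh carry at high levels. These genes do not mark Tfh alone. The study placed Pdcd1 and Tox, from HP1γ KO cells with Treg, in a gene network of T cell exhaustion and anergy. Which programme the rises belong to was not tested. Pdcd1 was at 54.9, 43.0 and 35.99 CPM without and 539.6, 468.3 and 265.3 CPM with Treg (3.29, SE 0.31, adjusted p = 0.00186). Of the 8 SLAM family and SAP signalling genes Slamf6 rose (1.39, SE 0.28), and of the 3 cytokine and ligand genes, 2 of them tested, Tnfsf8 rose (2.38, SE 0.26). Of the 5 positioning receptors 2 fell, S1pr1 (-1.03, SE 0.19), by which T cells leave lymphoid organs, and Selplg (-1.29, SE 0.19), whose product PSGL-1 is low on Tfh. The 6 genes of ICOS signalling held 1 call, Icosl, the ligand of Icos, at 36.1, 34.8 and 31.3 CPM without and 3.22, 8.55 and 3.92 CPM with Treg (-2.67, SE 0.38, adjusted p = 0.00784). List medians were 1.11 for promoting factors, -0.25 for restraining factors, 1.21 for surface genes, 0.09 for SLAM genes, 1.29 for cytokines and ligands, -0.82 for positioning receptors and -0.39 for ICOS signalling, against 0.035 over all genes.

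In HP1a KO cells 3 of these genes were called with Treg (0.44% of all genes), in the same direction as in WT. Tox was at 20.9, 38.7 and 33.8 CPM without and 107.3, 160.7 and 131.4 CPM with Treg (2.11, SE 0.25, adjusted p = 0.0292), Pdcd1 at 28.9, 35.2 and 31.7 CPM against 109.3, 147.7 and 98.8 CPM (1.91, SE 0.16, adjusted p = 0.00755), and Icosl at 37.4, 33.8 and 35.4 CPM against 14.5, 15.7 and 14.1 CPM (-1.25, SE 0.10, adjusted p = 0.00755). By edgeR, none of the 49 was called with Treg in the HP1g line (at an unadjusted p under 0.05 there were 10 in WT and 17 in KO), and none between KO and WT Tconv with Treg (18 in the HP1a line and 22 in the HP1g line at an unadjusted p under 0.05). Of the lists, KO against WT Tconv with Treg had medians on opposite sides of 0 in the 2 lines for all 7. These were, in the HP1a and the HP1g line, -0.67 and 0.71 for promoting factors, -0.20 and 0.98 for surface genes, 0.16 and -0.08 for SLAM genes, and -1.07 and 1.04 for cytokines and ligands. The medians were 0.22 and -0.36 for restraining factors, 0.54 and -0.44 for ICOS signalling, and 0.56 and -0.33 for positioning receptors. Genes above 0 in the HP1a and the HP1g line were 2 and 9 of 10 promoting factors and 4 and 7 of 9 surface genes. For SLAM genes they were 5 and 4 of 8, and for restraining factors 5 and 3 of 8. They were 6 and 0 of 6 for ICOS signalling and 4 and 2 of 5 for positioning receptors. Of the cytokines and ligands, 0 of 2 tested genes were above 0 in the HP1a line and 2 of 3 in the HP1g line. The difference between the lines (2.72% of all genes called) was called for 3 promoting factors, Tox (-4.37, SE 0.61), Batf (-2.34, SE 0.39) and Maf (-2.25, SE 0.49), for 3 surface genes, Pdcd1 (-4.47, SE 0.67), Cd200 (-3.74, SE 0.56) and Tnfrsf4 (OX40; -2.61, SE 0.44), and for Tnfsf8 (-2.29, SE 0.46). It was called in the other direction for S1pr1 (1.45, SE 0.34) and for Zc3h12a, the Regnase-1 gene that destabilises Icos mRNA (1.43, SE 0.26). The study names Tox and Pdcd1 among the genes it selected for HP1γ from these same samples. Their values are therefore not independent of that choice. The difference of the WT changes with Treg between lines (1.56% of all genes) was called for Tox (3.002, SE 0.53) and Tnfsf8 (1.57, SE 0.34), both higher in the HP1a line.

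**Figure D3:**
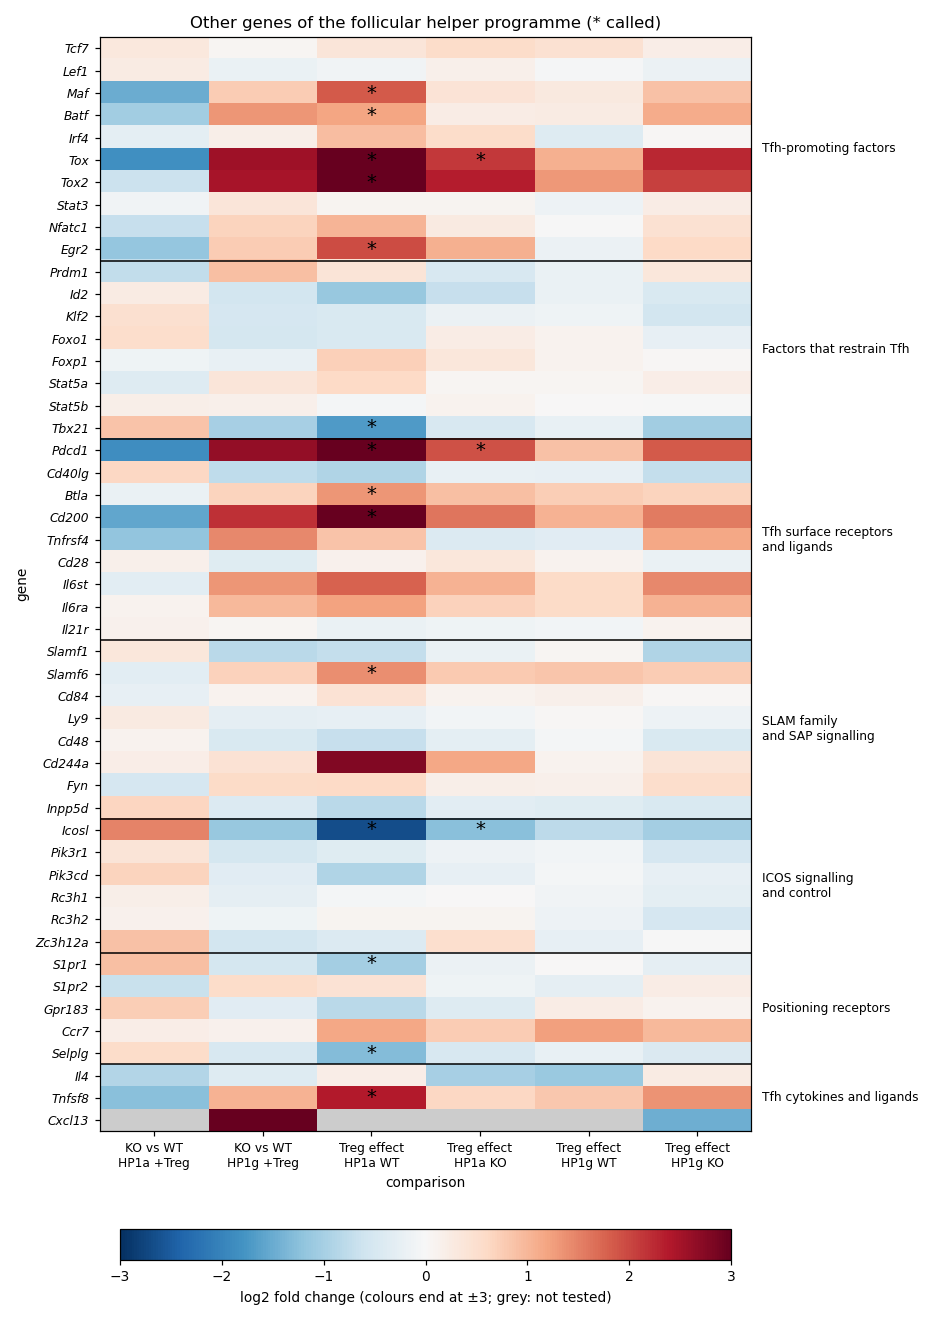
log2 fold change (colour, ending at ±3) of 49 genes of the Tfh programme in 7 lists, by comparison, with called genes starred and genes not tested in grey. Stars are concentrated in the HP1a WT column of Tconv with against without Treg, with Tox, Pdcd1 and Icosl also starred in HP1a KO.

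Between naive cells and Tconv the same lists were called in both directions. In HP1a WT, 3 promoting factors rose and 3 fell, 3 restraining factors rose and 2 fell, 2 surface genes rose and 3 fell, and 2 SLAM genes rose, where 23.1% of all genes were called. Pdcd1 rose in this comparison too (3.16, SE 0.31) and so did Icosl (2.14, SE 0.20), whereas Tox fell (-1.69, SE 0.24). Thus Pdcd1 was higher in Tconv than in naive cells and higher again in HP1a WT Tconv with Treg, while Tox and Icosl moved in opposite directions at the 2 steps, as Bcl6 and Pou2af1 did.

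The members varied together among transferred cells. Across the 23 libraries of Tconv with and without Treg, which share lines, hosts and sequencing, the Pearson correlation of Cxcr5 with Pou2af1, on log2(CPM + 1), was 0.939, the highest of the 21 pairs, and that of Bcl6 with Pou2af1 was 0.900. The lowest was that of Sh2d1a with Icos (0.471). Over all 35 libraries the correlation of Cxcr5 with Pou2af1 was 0.198, since naive cells had high Pou2af1 and low Cxcr5. That pair is shown in the plot of Cxcr5 against Pou2af1.

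**Figure D4:**
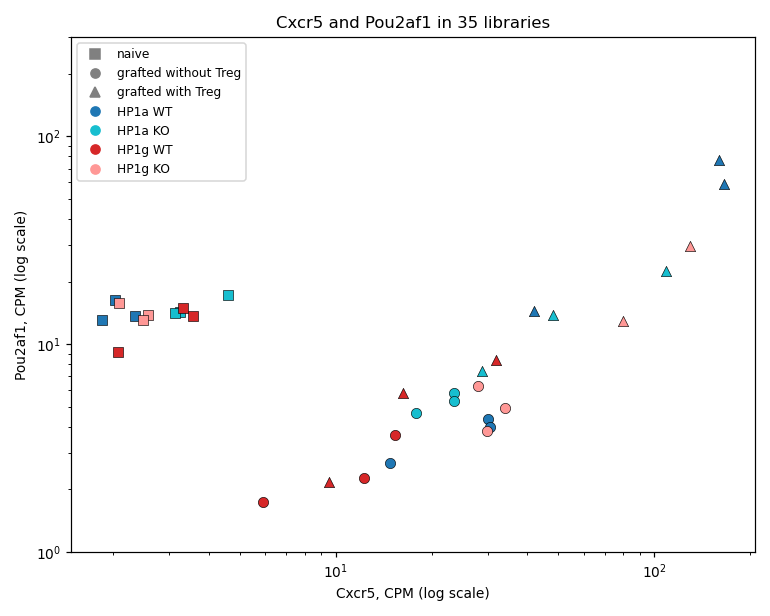
Pou2af1 against Cxcr5 (CPM, log axes) in 35 libraries, with squares for naive cells, circles for Tconv and triangles for Tconv with Treg, coloured by line and genotype. Naive cells form a separate cluster at 1.86 to 4.60 CPM Cxcr5, while the transferred cells lie along a single band.

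Over the means of the 12 groups, the genes whose log2(CPM + 1) followed each member most closely were sought among 9398 genes whose mean level reached 5 CPM. For Bcl6 they were Tox (r = 0.971), Igf1r (0.945) and Hdac7 (0.942). For Cxcr5 they were Synpo (0.986), Pdcd1 (0.986) and Atpif1 (0.984), and for Il21 Cybb (0.986), Angptl2 (0.985) and Ccl3 (0.982). Sh2d1a was followed by Plekho1 (0.984), Dleu2 (0.975) and Rasgef1a (0.973), Ascl2 by Nanos1 (0.983), Dnajc9 (0.954) and Cacna1d (0.949), and Pou2af1 by Timp2 (0.975), Adamts6 (0.967) and Igf1r (0.958). For Icos they were Cdca8 (0.991), Ap1s2 (0.991) and Asf1b (0.990), of which Cdca8 and Asf1b act in cell division. The 12 points fall into 3 conditions, and the choice of points mattered. Over the 35 libraries the leading 3 genes kept 2 of 3 for Il21 and Pou2af1, 1 for Cxcr5 and Sh2d1a, and 0 for Bcl6, Ascl2 and Icos.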

How the data were processed

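RNA of mouse CD4+ T cells (naive cells by negative selection, transferred cells by sorting) had been sequenced with the SMART-Seq v4 PLUS kit (poly(A)-primed, paired-end, strand not marked). Within nf-core/rnaseq, the authors used Trim Galore for trimming, STAR for alignment to GRCm39 and Salmon for quantification, and they deposited a table of estimated counts per gene, of which 82.9% were whole numbers. Here the estimated counts were rounded and read in 35 of 36 libraries, with 37029519 to 63042245 counts each, so that a gene without counts lay below 0.0476 to 0.0810 CPM (3 counts). Groups followed the sample labels, and replicates of a group correlated at 0.982 to 0.998, with 0 of 34 replicate pairs identical.

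The 7 members and the gene lists were chosen with earlier results of these data known. Each comparison used its own groups in edgeR 4.0.16 (R 4.3.3), with TMM scaling, the filterByExpr filter and the quasi-likelihood test on all genes that passed, Benjamini-Hochberg adjustment over all of them, and a call at an adjusted p under 0.05 and an absolute log2 fold change above 1. Log2 fold changes are given as first group against second. The difference between lines was fitted over the groups of both. The members were named as a fixed list and the genes most like them by the highest Pearson correlation over group means of log2(CPM + 1). Alternatives were DESeq2 1.42.0, other size factors, no filter, no fold threshold, a replicate block, all 35 libraries in 1 fit, and each library left out in turn. The tests were checked on simulated counts. Whether libraries of the same number deviate together was checked: with 3 pairs or more, every pair's correlation exceeded 0.1 only for KO against WT naive cells of the HP1a line (0.495 to 0.828) and for HP1g WT with against without Treg (0.154 to 0.458). KO against WT Tconv with Treg in the HP1g line had 2 pairs (0.222 to 0.454), too few for this rule. Levels of genes are compared per kilobase of exon union. Promoter sequences came from RefSeq (GRCm38.p6), gene positions from the GRCm39 annotation.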

Additional observations from a re-analysis of the deposited data

Results flagged for a closer look

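In Tconv with Treg, the KO effect differed between the 2 lines by a test of the difference itself (HP1a minus HP1g, edgeR) for Bcl6 (log2 difference -2.64), Il21 (-5.66), Sh2d1a (-2.36) and Ascl2 (-10.99), the last a fitted value on low counts. The change with Treg in WT cells differed between the lines (HP1a minus HP1g) for Bcl6 (2.44), Il21 (4.27) and Ascl2 (8.05). In both, line and experiment cannot be told apart. The values of Ascl2 rest on the groups where it was high, so nothing further is read from them.

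The HP1g KO library with Treg that was left out (replicate 3) was scaled with all 36 libraries. It lay above every WT library of its line with Treg for 34.8% of all 17177 genes tested, and for 5 of the 7 members, Bcl6 at 98.3 CPM, Il21 at 272 CPM, Ascl2 at 1.86 CPM, Pou2af1 at 18.4 CPM and Icos at 4231 CPM. Cxcr5 (18.2 CPM) and Sh2d1a (42.1 CPM) were not above. Icos did not exceed 471.8 CPM in any other library. Groups held 3 libraries or fewer, so that no library was tested as an outlier of its group.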

How the results depend on the processing

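With 2 or 3 libraries a group, the number of members called depended on the tool. By DESeq2 it was 3 in place of 0 for KO against WT Tconv with Treg in the HP1a line and 6 in the HP1g line, 2 for KO against WT Tconv in the HP1g line, 4, 1 and 3 for the change with Treg in HP1a KO, HP1g WT and HP1g KO, 1 for the interaction in each line, 6 in place of 4 for the difference of KO effects, 5 in place of 3 for that of the changes with Treg between lines, and 5 in place of 4 for Tconv against naive HP1g WT cells. With all 35 libraries in 1 fit it was 3 and 6 for KO against WT Tconv with Treg (HP1a and HP1g line), 1 for KO against WT Tconv in the HP1g line, 2 and 3 for the change with Treg in HP1a KO and HP1g KO, 6 for the difference of KO effects and 5 for that of the changes with Treg. Without the filter on low counts it was 1 for KO against WT Tconv with Treg in each line, 2 for the change with Treg in HP1g KO, 2 in place of 4 for the difference of KO effects and 1 in place of 3 for that of the changes with Treg. With the left-out library included, 1 member was called for the difference of KO effects.

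With the replicate number as a block, members called went from 0 to 1 for KO against WT Tconv with Treg in the HP1g line and from 4 to 3 for the difference of KO effects, and the number stayed the same in the other comparisons. The numbers of these groups pair libraries by number alone. In transferred cells of the HP1g line, replicate 1 of each group also shared a high erythroid sum.

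Leaving out 1 library at a time gave 1 to 6 members called for the change with Treg in HP1a WT, 0 to 1 in HP1g KO, 0 to 1 for KO against WT Tconv with Treg in either line, 0 to 1 for the interaction in the HP1a line, 1 to 6 for the difference of KO effects, 1 to 4 for that of the changes with Treg, and for Tconv against naive cells 4 to 5 in HP1a WT, HP1a KO and HP1g KO and 4 to 4 in HP1g WT. It was 0 in the remaining comparisons. Leaving out a library of HP1g KO Tconv with Treg leaves a lone sample, assumed to vary like the other groups.

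Over single genes, 651 of 712 values stayed on their side of the threshold under the other alternatives and 753 of 824 with a library left out. Of these, 643 and 721 also kept their direction, and the other 8 and 32 changed sign without being called in either fit. No call changed sign. The counts of all genes called also differed, with 20 for KO against WT Tconv with Treg in the HP1a line by edgeR, 713 by DESeq2 and 811 with all libraries in 1 fit, 0, 628 and 337 in the HP1g line, and 932, 1754 and 2083 for the change with Treg in HP1a WT. Depth limited Ascl2, which had 0 to 29 counts per group in Tconv without Treg, and Il21 in naive cells.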
